A study of Homo sapiens with 4 samples.

Results

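The endothelin and renin-angiotensin genes described here are the 9 symbols EDN1, EDN3, ECE1, EDNRA, EDNRB, AGT, ACE, AGTR1 and AGTRAP. They were chosen by name out of the 23615 symbols of the gene table, with earlier results of these data known. All 9 were present with 1 entry each. They were followed in 2 kinds of cardiomyocytes grown from RUES2, an established line of human embryonic stem cells, and collected at day 14, with 2 libraries of poly-A RNA for each. CPC cardiomyocytes came from A100/B5 cardiac progenitor cells, made in a monolayer with activin A and BMP4. ECsXAV cardiomyocytes came from A100/B5 hemogenic endothelial cells, made in a monolayer with the same 2 factors plus VEGF on day 2 and then turned toward the cardiac lineage with 2 uM XAV, which inhibits the Wnt/β-catenin pathway. The study added XAV to CPC cultures as well, at an earlier stage, in some of its experiments, and the labels do not say whether these CPC libraries had it. Both groups derive from a single stem cell line, and the cells were sequenced without sorting. The values are FPKM, fragments of a gene scaled by the length of its transcripts and by the mapped fragments of the library. Levels are set side by side on this scale between genes and between libraries. It corrects for length and library size and not for a difference in the mix of RNA between libraries.

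Endothelins are short vasoactive peptides. Each is cut from a large precursor, and the last cut is made by endothelin converting enzyme. They act through a pair of G protein coupled receptors, and in the embryo the EDN1 and EDNRA pair patterns the pharyngeal arches and acts on the outflow region of the heart, whereas EDN3 and EDNRB act on neural crest cells. In the renin-angiotensin system, angiotensinogen, the product of AGT, is cut to angiotensin I, ACE trims that to angiotensin II, and the receptor encoded by AGTR1 transmits most of its effects on vessels and heart muscle. Heart muscle cells carry receptors of both systems.

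The DNA just upstream of the start site is shown for EDN1, which had the largest difference among the tested genes of the set, and for AGT, whose libraries likewise did not overlap and were lower in CPC cardiomyocytes. Each window holds the 250 bases before the start of the canonical GENCODE transcript, read 5′ to 3′ on the strand of the gene from GRCh37, the build of hg19. Capitals mark every match on either strand to the letters GATAA of GATA factors, to the AP-1 letters TGANTCA, to the core letters CTTTGA of TCF/LEF factors and to the hypoxia response letters ACGTG. They also mark the TATA box letters TATAAA on the strand of the gene.
EDN1 (GRCh37, chr6:12290344-12290593, forward strand): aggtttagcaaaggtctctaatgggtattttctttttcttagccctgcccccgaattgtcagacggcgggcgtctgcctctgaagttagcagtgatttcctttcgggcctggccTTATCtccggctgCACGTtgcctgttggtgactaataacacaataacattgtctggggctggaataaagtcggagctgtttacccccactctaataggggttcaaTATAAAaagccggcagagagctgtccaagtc
AGT (GRCh37, chr1:230849869-230850118, reverse strand): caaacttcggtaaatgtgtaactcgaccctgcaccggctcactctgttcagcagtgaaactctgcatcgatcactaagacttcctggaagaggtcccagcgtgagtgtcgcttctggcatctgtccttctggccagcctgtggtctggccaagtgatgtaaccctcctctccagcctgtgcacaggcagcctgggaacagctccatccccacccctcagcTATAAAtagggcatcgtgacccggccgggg

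A TATA box began 31 bases before the start of EDN1 and 30 bases before the starts of AGT and AGTR1. Its letters stood, at any position, in 6.80% of 35116 RefSeq windows of the same length. How many of these windows held them at a like distance was not counted. The EDN1 window also held GATA letters that began 136 bases before the start (20.4% of the RefSeq windows held such a match) and the hypoxia response letters 123 bases before it (18.5%). The windows of EDNRA, ECE1 and ACE held none of these letters. The AP-1 letters, which 6.57% of the RefSeq windows held, were in none of the 9. EDN3 had 1 match, to TCF/LEF (11.2% of the RefSeq windows), EDNRB had 2 and AGTRAP 4, all of them to the hypoxia response element, and the 4 of AGTRAP overlap as pairs of opposite strands. A match of letters is a description of the window and not a bound site.

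The 4 libraries differed in depth. Total read numbers were not used here, but FPKM of rarely read genes come in steps of whole reads, and these steps put ECsXAV replicate 2 at 50.1%, CPC replicate 1 at 86.9% and CPC replicate 2 at 79.8% of the depth of ECsXAV replicate 1. The cardiac label held in every library, with TNNT2, the troponin T of the heart, at 2309 to 2988 FPKM. Endothelial genes ranged from EGFL7 (12.0 to 16.9 FPKM) and KDR (7.06 to 10.8 FPKM) to PECAM1 (0.0425 to 0.233 FPKM) and VWF (0 to 0.0209 FPKM). Of the 10 cardiomyocyte markers, MYH6 was higher and MYBPC3 lower in CPC cardiomyocytes, and the other 8 did not pass the test described next. Markers of other cell types moved with the groups. TAGLN (1 of 7 tested smooth muscle and pericyte markers), COL1A1, COL3A1 and LUM (3 of 5 fibroblast markers) and AFP, TTR and APOA2 (3 of 4 hepatic and endoderm markers) were lower in CPC cardiomyocytes. With the replicate number as a block MYH6, COL1A1, COL3A1, TTR and APOA2 did not pass (adjusted p 0.0541 to 0.0802 from limma), MYH6 and MYBPC3 did not pass with any 1 replicate left out, and without the filter on low FPKM AFP was the 1 of these markers that passed. The summed FPKM of these lists were 283 to 313 against 149 to 176, 117 to 152 against 54.8 to 65.5, and 36.7 to 44.7 against 17.1 to 19.5 in the ECsXAV and CPC libraries. None of 7 endothelial and none of 2 neural crest markers passed, and all 6 epicardial markers were under the filter, with sums of 1.11 to 2.22 FPKM. Names of the libraries begin differently in the ECsXAV and CPC groups, and a difference between separate experiments cannot be told apart from that between the groups.

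The comparison asks whether the route to a cardiomyocyte, through endothelial or through progenitor cells, leaves a difference in these genes. The 12398 genes with a mean of at least 1 FPKM were tested together with limma on log2(FPKM + 1), with Benjamini-Hochberg adjustment, and a gene passed where its adjusted p was under 0.05 and it changed by more than 2-fold. Fold changes are CPC minus ECsXAV, and the added 1 understates those of low genes. Of the 9 genes, 6 were tested and none passed (limma), and 1 of the 6, EDN1, had an unadjusted p under 0.05. Across all tested genes 2.15% passed, of which 1.44% were lower in CPC cardiomyocytes and 0.71% were higher there, each as a share of all tested genes, and 18.2% had an unadjusted p under 0.05. Libraries of the groups did not overlap for 3 of the 6 genes, EDN1, AGT and ECE1, beside 49.8% of all tested genes. The median log2 fold change of the 6 genes was -0.044, and that of all tested genes was -0.0045. The replicates are described by the study as biological, and the p-values rest on these 4 libraries. They set each difference against the spread within groups, which limma draws toward that of tested genes of like level. In such bulk samples, fewer cells of a type and less RNA per cell cannot be told apart.

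**Figure D1:**
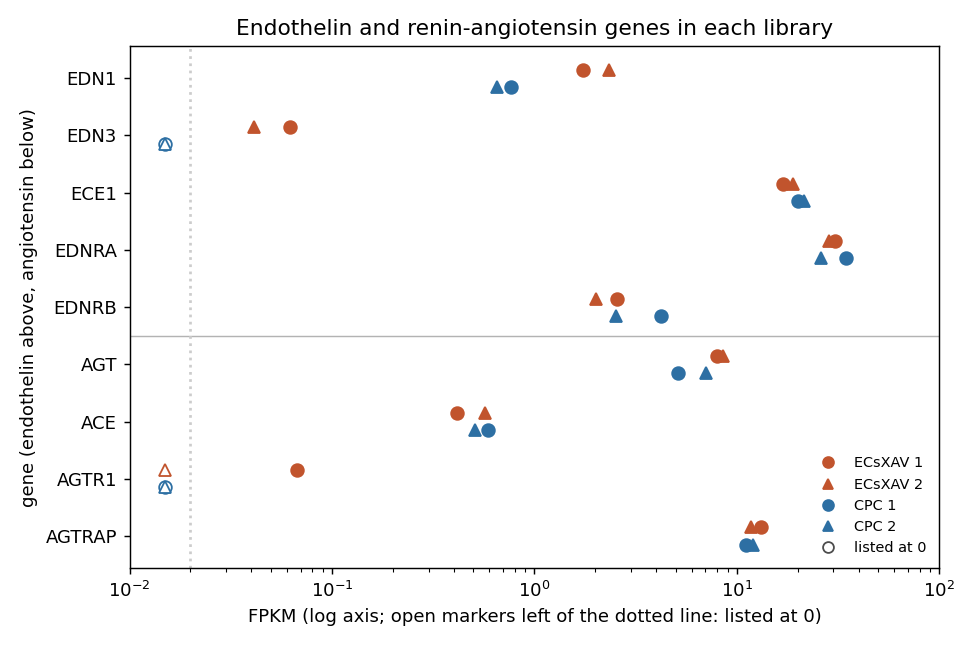
FPKM of the 9 genes (log axis) in the 2 ECsXAV and 2 CPC libraries, with 1 marker per library and open markers for genes listed at 0. EDNRA and ECE1 are the most abundant in every library, the EDN1 markers of the groups stand apart (1.74 and 2.33 against 0.657 and 0.768 FPKM), and EDN3 and AGTR1 are at or near 0.

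EDN1, the precursor of endothelin-1 (chromosome 6, 12290594 to 12297427, forward strand), had the largest difference between the groups of the 6 tested genes. It had 1.74 and 2.33 FPKM in the ECsXAV libraries and 0.768 and 0.657 FPKM in the CPC libraries. Both ECsXAV libraries lay above both CPC libraries, and the mean FPKM was 2.85 times as high in ECsXAV cardiomyocytes. On the log2(FPKM + 1) scale the change was -0.82 (standard error 0.17, 95% interval -1.26 to -0.38, adjusted p = 0.0904 from limma, unadjusted 0.00524), which did not pass. When short RNA genes, and genes at 0 in 1 replicate with 5 FPKM or more in the other, were kept out of the fit, the adjusted p from limma was 0.0138, with the change still under 2-fold on this scale. With 0.1 in place of 1 added to the FPKM the change was -1.38, with an adjusted p of 0.106 from limma. Endothelial cells are the best known source of endothelin-1. The summed FPKM of the 16 endothelial markers were 33.8 and 37.6 in the ECsXAV libraries and 32.9 and 30.0 in the CPC libraries, sums in which EGFL7 and KDR weighed most. Of lower markers, CDH5, the cadherin of endothelial junctions, had 1.19 and 1.49 FPKM in the ECsXAV libraries and 0.875 and 0.649 FPKM in the CPC libraries. ESAM, TEK and ROBO4 were likewise lower in both CPC libraries without overlap, with mean FPKM 2.12, 3.30 and 2.19 times as high in ECsXAV cardiomyocytes. These markers were under the filter and not tested, with means over all libraries of 0.885, 0.416 and 0.199 FPKM. EGFL7, FLT1, CD34 and VWF were also lower in both CPC libraries without overlap. EMCN and NOS3 were higher in both CPC libraries, and KDR, PLVAP, TIE1, ERG, PECAM1 and CLDN5 overlapped between the groups. None of the 7 tested endothelial markers passed (limma) or had an unadjusted p under 0.05, and the part of endothelial cells in the EDN1 values was not tested.

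EDN3, the precursor of endothelin-3 (chromosome 20, 57875498 to 57901047, forward strand), was near 0. It had 0.0617 and 0.0410 FPKM in the ECsXAV libraries and was listed at 0 in both CPC libraries. After the difference in depth is taken out, the ECsXAV values stand to each other as 3 reads to 1, so the gene was under the filter, and a difference was not detectable at this depth. EDN2, the third ligand, taken from the list of related genes, was also under the filter at 0.694 and 0.606 FPKM in the ECsXAV libraries and 0.699 and 0.652 FPKM in the CPC libraries. EDN1 made up 71.5% and 79.4% of the summed EDN1 and EDN2 FPKM in the ECsXAV libraries and 52.4% and 50.2% in the CPC libraries. EDN2 itself overlapped between the groups. This pair and that of ECE1 and ECE2 were chosen after their values were seen and are given without a test.

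ECE1, the protease that makes the last cut to active endothelin (chromosome 1, 21543740 to 21672065, reverse strand), was the second most abundant of the 9 genes. It had 16.8 and 18.9 FPKM in the ECsXAV libraries and 20.0 and 21.4 FPKM in the CPC libraries. The CPC libraries were both higher, by a small margin, with a log2 fold change of 0.20 (standard error 0.12, 95% interval -0.10 to 0.50, adjusted p = 0.442 from limma). ECE2, a related protease, had 6.01 and 7.31 FPKM in the ECsXAV libraries and 6.33 and 8.76 FPKM in the CPC libraries. ECE1 made up 71.0% to 76.0% of the 2 in the 4 libraries, with overlapping groups.

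EDNRA, the receptor that prefers endothelin-1 (chromosome 4, 148402069 to 148466106, forward strand), had the highest level of the 9 genes in every library. It had 30.7 and 28.6 FPKM in the ECsXAV libraries and 34.7 and 26.0 FPKM in the CPC libraries. The CPC libraries lay on either side of the ECsXAV libraries, and the log2 fold change was 0.017 (standard error 0.17, 95% interval -0.41 to 0.45, adjusted p = 0.970 from limma). EDNRB, the receptor that binds all endothelins alike (chromosome 13, 78469616 to 78549664, reverse strand), was far lower, with 2.57 and 2.01 FPKM in the ECsXAV libraries and 4.20 and 2.53 FPKM in the CPC libraries. The groups overlapped, with CPC replicate 1 the highest, and the log2 fold change was 0.39 (standard error 0.23, 95% interval -0.21 to 0.99, adjusted p = 0.466 from limma). EDNRA made up 92.3% and 93.4% of the summed receptor FPKM in the ECsXAV libraries and 89.2% and 91.1% in the CPC libraries. The receptor balance was thus on the side of EDNRA in all 4 libraries. The CPC mean share was lower, by -2.70 percentage points as CPC minus ECsXAV (exact permutation test, two-sided p = 0.33, the smallest that 2 libraries against 2 can give).

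**Figure D2:**
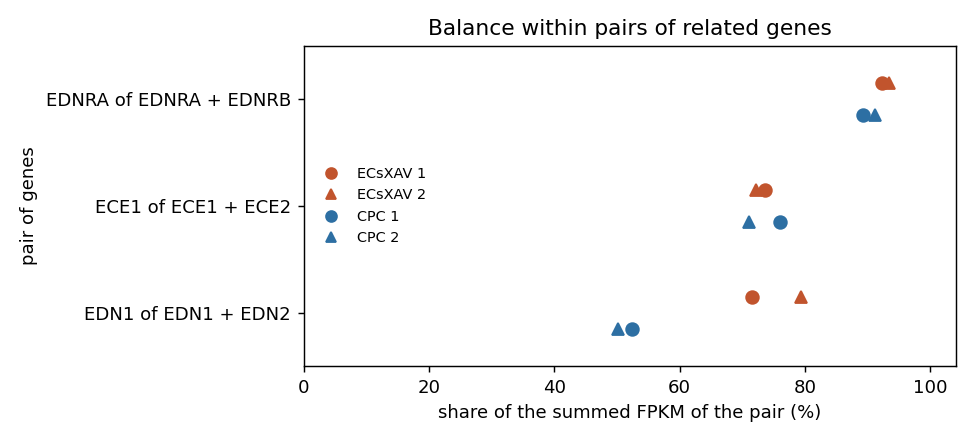
Share of the first gene in the summed FPKM of 3 pairs of related genes (percent), with 1 marker per library. EDN1 is 71.5% and 79.4% of its pair in the ECsXAV libraries and 52.4% and 50.2% in the CPC libraries, ECE1 overlaps between the groups, and EDNRA stays at 89.2% or more in all 4.

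AGT, the precursor of all angiotensins (chromosome 1, 230826522 to 230881322, reverse strand), was the most abundant gene of the renin-angiotensin peptide chain in the set. It had 8.01 and 8.53 FPKM in the ECsXAV libraries and 5.12 and 7.05 FPKM in the CPC libraries. Both ECsXAV libraries were higher, but the CPC libraries stood further from each other than CPC replicate 2 stood from ECsXAV replicate 1. The log2 fold change was -0.40 (standard error 0.17, 95% interval -0.83 to 0.03, adjusted p = 0.301 from limma), which did not pass. AGT is made in quantity by liver cells. Of the hepatic and endoderm markers, AFP, TTR and APOA2 were lower in CPC cardiomyocytes. APOA1, the most abundant of that list, was also lower in both CPC libraries but did not pass (log2 fold change -0.18, adjusted p = 0.530 from limma). Of the markers under the filter, TF, SERPINA1, SOX17, FGB, APOB and FOXA2 were lower in both CPC libraries without overlap. ALB, likewise under the filter, overlapped between the groups. The part of such cells in the AGT values was not tested.

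ACE, which makes angiotensin II (chromosome 17, 61554422 to 61575741, forward strand), was low and under the filter. It had 0.413 and 0.567 FPKM in the ECsXAV libraries and 0.590 and 0.511 FPKM in the CPC libraries, and the groups overlapped. AGTR1, the main angiotensin II receptor (chromosome 3, 148415571 to 148460795, forward strand), was listed at 0.0668 FPKM in ECsXAV replicate 1 and at 0 in the other 3 libraries. AGTRAP, whose product binds the tail of that receptor and promotes its internalization (chromosome 1, 11796141 to 11814859, forward strand), was by contrast well expressed, with 13.2 and 11.8 FPKM in the ECsXAV libraries and 11.1 and 12.0 FPKM in the CPC libraries. The groups overlapped, and the log2 fold change was -0.11 (standard error 0.12, 95% interval -0.41 to 0.20, adjusted p = 0.702 from limma). The RNA of the binding partner was thus present in all 4 libraries, in which that of the receptor was at or near 0. AGTR1 had a value above 0 in 1 library, and at such values a difference was not detectable at this depth.

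In the order of mean FPKM the genes ran EDNRA, ECE1, AGTRAP, AGT, EDNRB, EDN1, ACE, EDN3 and AGTR1. Each neighbour in this order was the higher one in all 4 libraries, and the ranges of neighbours over the 4 libraries did not overlap, with 2 exceptions. EDNRB (2.01 to 4.20 FPKM) and EDN1 (0.657 to 2.33 FPKM) overlapped, with EDNRB the higher one in 3 of 4 libraries, and EDN3 and AGTR1 overlapped near 0. The 95% intervals of 5 of the 6 tested genes lay within a 2-fold change in either direction on the log2(FPKM + 1) scale. EDN1 was the exception, with a lower bound past 2-fold.

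The transcript estimates of the same genes were less stable than their totals. EDN1 was assigned 99.9% to NM_001955 in ECsXAV replicate 1, whereas NM_001168319 took 91.0% in ECsXAV replicate 2 and 82.7% and 76.0% in the CPC libraries. For EDNRB, NM_003991 reached 14.2% in CPC replicate 1 and NM_001201397 reached 10.4% in CPC replicate 2. The EDNRB transcript NM_001122659 took 92.7% and 0.317% in the ECsXAV libraries and 75.4% and 89.4% in the CPC libraries, and NM_000115 took 99.7% in ECsXAV replicate 2. Replicates of 1 group thus stood at opposite ends for both genes. AGTRAP behaved alike, with NM_001040195 at 65.8% and 1.87% in the ECsXAV libraries and 67.8% and 53.0% in the CPC libraries, NM_001040197 at 31.1% and 71.2% and then 21.7% and 42.8%, and NM_001040196 reaching 26.9% in ECsXAV replicate 2. The library that stood apart was ECsXAV replicate 2, the one of lowest depth, for EDNRB and AGTRAP, and ECsXAV replicate 1, the one of highest depth, for EDN1 and ACE.

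ECE1 and ACE each kept 1 leading transcript in all 4 libraries. For ECE1 this was NM_001113349, at 83.7% and 69.8% in the ECsXAV libraries and 82.0% and 93.8% in the CPC libraries, followed by NM_001113348 at 4.82% to 29.9%. EDNRA was spread over NM_001957 (49.9% and 38.4%, then 41.1% and 29.3%), NM_001256283 (28.3% to 38.7%) and NM_001166055 (5.13% to 33.7%), and the noncoding NR_045958 took 28.2% in ECsXAV replicate 2 and under 1% elsewhere. NM_001957 had the highest mean FPKM, but in CPC replicate 2 NM_001256283 led at 36.7%. ACE was assigned to NM_000789, the long somatic form, at 77.1% in ECsXAV replicate 1 and close to 100% in the other 3 libraries. In ECsXAV replicate 1 NM_152830 took 22.9% of ACE. For the share of the leading transcript in CPC against ECsXAV, the two-sided exact permutation p was 1 for EDN1, EDNRB and ACE and 0.667 for EDNRA, ECE1 and AGTRAP. EDN3 and AGTR1 had too few reads for shares, and the whole of AGT came from 1 transcript, NM_000029.

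**Figure D3:**
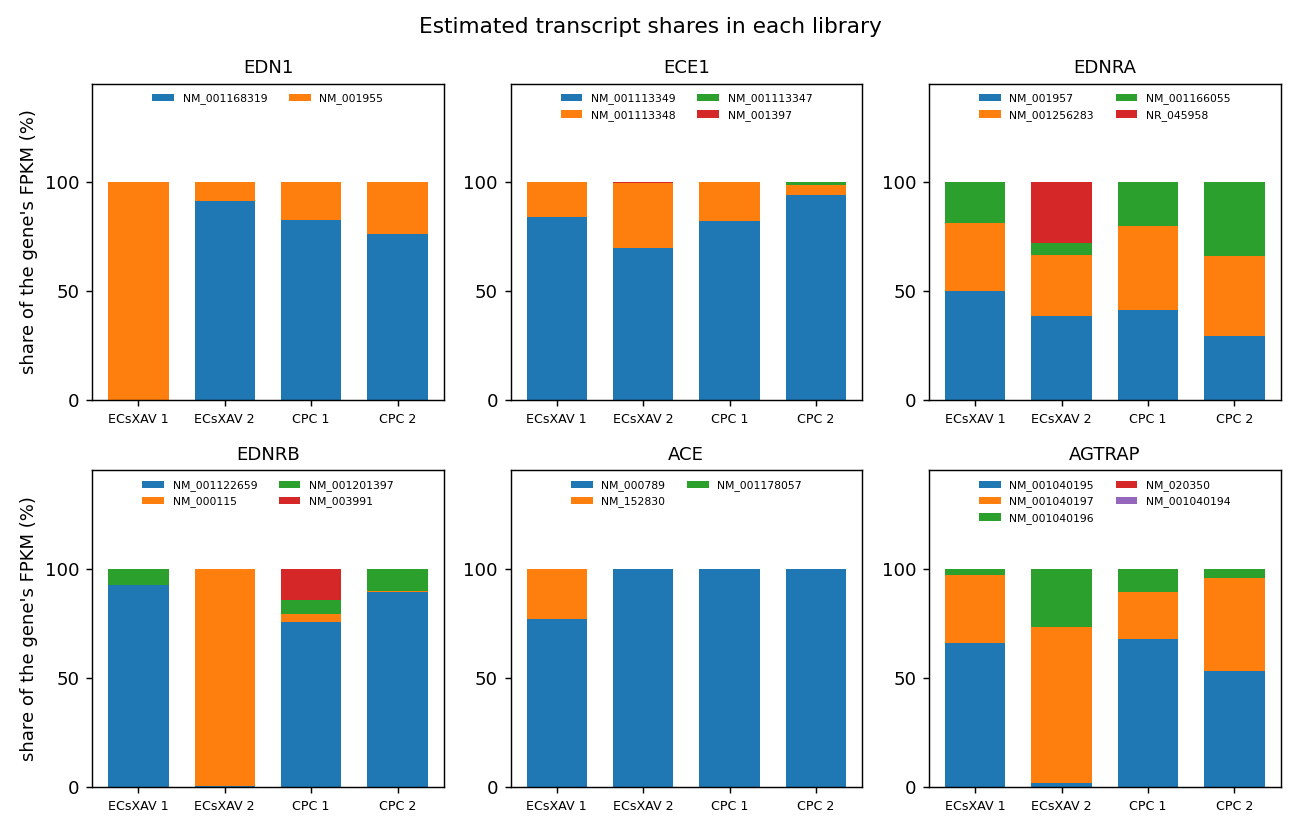
Share of each gene's FPKM (percent) assigned to each RefSeq transcript, stacked to 100% in each of the 4 libraries, for the 6 genes above 0.1 FPKM with several transcripts. The leading transcript of EDN1, EDNRB and AGTRAP differs between the ECsXAV replicates, whereas NM_001113349 leads ECE1 in all 4 libraries.

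The list of related genes of the endothelin and angiotensin pathways, chosen by their function, held 21 genes reported here. Of these, 10 were tested, none of the 10 passed (limma) and none had an unadjusted p under 0.05, and the other 11 were under the filter. The most abundant were PRCP, a peptidase that breaks down angiotensin II, and ATP6AP2, an accessory subunit of the vacuolar proton pump. PRCP had 57.2 and 62.1 FPKM in the ECsXAV libraries and 57.1 and 64.6 FPKM in the CPC libraries (log2 fold change 0.026, adjusted p = 0.935 from limma). ATP6AP2 had 42.3 and 41.5 FPKM in the ECsXAV libraries and 48.2 and 40.9 FPKM in the CPC libraries (log2 fold change 0.083, adjusted p = 0.790 from limma). Both overlapped between the groups. CMA1, CPA3 and CTSG, proteases of mast cells and neutrophils that can make or trim angiotensins, were listed at 0 in all 4 libraries. The median log2 fold change of the 10 tested related genes was -0.025, and the 95% intervals of 9 of the 10 lay within 2-fold.

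**Figure D4:**
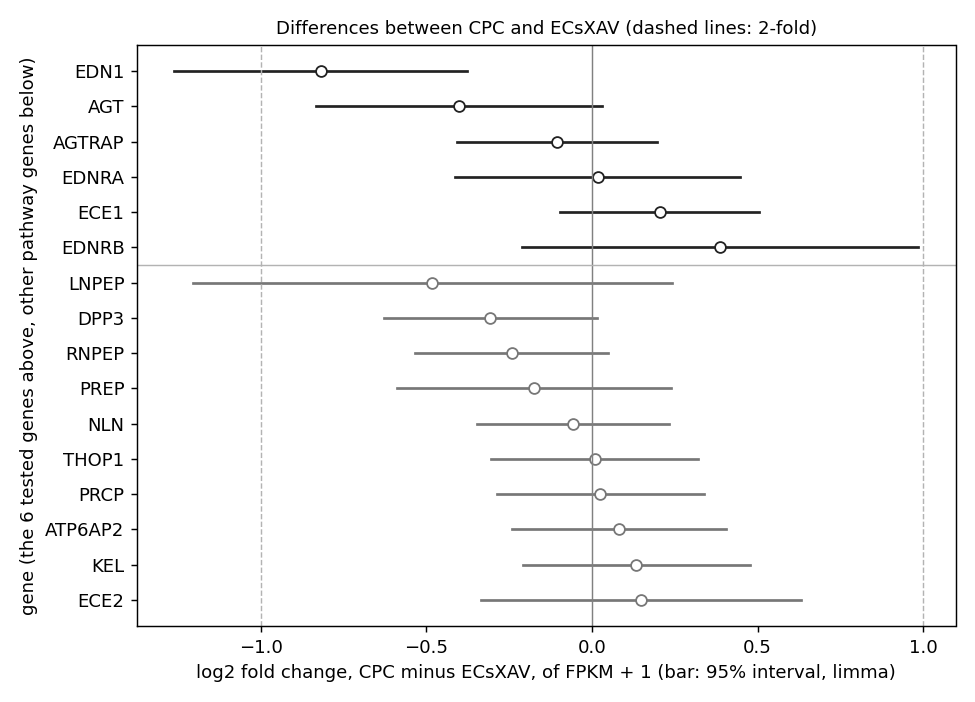
Log2 fold change of FPKM + 1, CPC minus ECsXAV, with its 95% interval from limma for the 6 tested genes of the set (above the line) and the 10 tested related genes (below). None of these genes passed the criterion, and of their intervals those of EDN1 and LNPEP reach beyond the dashed 2-fold line.

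Downstream of both receptor families, none of the 20 tested genes of G protein, phospholipase C, protein kinase C and receptor desensitization passed (limma). Of the 20, 7 had an unadjusted p under 0.05, beside 18.2% of all tested genes, and the median log2 fold change was 0.00030. Of these 7, RGS3, PRKCA and ARRB1 were lower in CPC cardiomyocytes, whereas RGS2, PLCB1, PLCB4 and ARRB2 were higher. The most abundant of the 20 were 2 regulators of G protein signaling. RGS3 had 34.1 and 36.1 FPKM in the ECsXAV libraries and 18.0 and 22.9 FPKM in the CPC libraries, which did not overlap (log2 fold change -0.76, standard error 0.15, adjusted p = 0.079 from limma). RGS5, also a marker of pericytes, had 30.3 and 23.0 FPKM in the ECsXAV libraries and 23.0 and 18.2 FPKM in the CPC libraries (log2 fold change -0.36, adjusted p = 0.410 from limma). RGS2, by contrast, was higher in CPC cardiomyocytes (log2 fold change 0.68, adjusted p = 0.082 from limma). It had 3.23 and 3.69 FPKM in the ECsXAV libraries and 5.71 and 6.61 FPKM in the CPC libraries. Of the 7 tested smooth muscle and pericyte markers TAGLN passed, and it was lower in CPC cardiomyocytes. CNN1, KCNJ8 and ABCC9 were also lower in both CPC libraries without overlap (log2 fold change -0.84, -0.92 and -0.94) but did not pass. CSPG4 was lower in both by less (-0.16). ACTA2 (log2 fold change 0.16) and NOTCH3 (-0.019) overlapped between the groups. Under the filter, PDGFRB was lower and MYH11 higher in both CPC libraries. In this list 4 of the 7 tested markers had an unadjusted p under 0.05 (limma), beside 18.2% of all tested genes. The median log2 fold change of the 7 was -0.84. The part of such cells in the RGS3 and RGS5 values was not tested.

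Of 10 genes of the EDN1 and EDNRA program of the pharyngeal arches, 5 were tested and none passed (limma). Among the 5, 3 had an unadjusted p under 0.05, beside 18.2% of all tested genes, and the median log2 fold change was -0.50. HAND1, a transcription factor of the arches and of the heart, had 73.5 and 63.6 FPKM in the ECsXAV libraries and 15.7 and 27.6 FPKM in the CPC libraries. These did not overlap, and the log2 fold change was -1.67 with a standard error of 0.28 (adjusted p = 0.0577 from limma). It did pass with 0.1 added to the FPKM (adjusted p = 0.0485 from limma) and without short RNA genes (adjusted p = 0.00152 from limma). HAND2, its relative, had 126 and 129 FPKM in the ECsXAV libraries and 56.6 and 99.0 FPKM in the CPC libraries (log2 fold change -0.76, adjusted p = 0.247 from limma). MEF2C, a transcription factor of heart and arches, differed the other way, with 23.4 and 19.1 FPKM in the ECsXAV libraries and 33.5 and 30.5 FPKM in the CPC libraries (log2 fold change 0.57, unadjusted p = 0.010, adjusted p = 0.124 from limma). MSX2 was also higher in both CPC libraries (log2 fold change 0.35) and MSX1 lower in both (-0.50), so the 5 genes did not share a direction. Both HAND genes also act in the developing heart under other signals. The arch genes BARX1, DLX3, DLX5 and DLX6 were under 0.2 FPKM, and GSC was listed at 0, in all 4 libraries.

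The genes whose pattern over the 4 libraries was most like that of EDN1 were NEFL, a neurofilament, PGF, a growth factor of the VEGF family, and TMTC1. Likeness was the root mean square distance of log2(FPKM + 1) after each gene was centred on its mean, and it was 0.0391, 0.0404 and 0.0476 for the 3. PGF, for example, was at 5.58 and 6.59 FPKM in the ECsXAV libraries and 3.35 and 2.93 FPKM in the CPC libraries. The likeness rests on 4 libraries, and 40 of the 12398 tested genes lay within 0.1 of EDN1. Whether it holds beyond these libraries was not tested.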

How the data were processed

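Poly-A RNA of 4 libraries was analysed, 2 per group, grouped by the sample labels. The authors deposited FPKM per gene and per transcript, computed with Cufflinks 2.1.1 on UCSC annotations for hg19. The submitters' processing notes also name TopHat 1.3.3, while the methods name Gsnap for the counts, which were not used here. Which alignment fed the FPKM is not given in the sources used here. Total depth is therefore unknown.

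Where a symbol had several entries, the one with the highest mean FPKM was used. Genes with a mean of at least 1 FPKM were fitted as log2(FPKM + 1) in limma 3.58.1 (R 4.3.3), whose variance prior followed the intensity, and p-values were adjusted over all of them by the Benjamini-Hochberg method. A gene passed at an adjusted p under 0.05 if it changed by more than 2-fold. Shares were compared by the exact permutation test. Tables were made with Python 3.11.15, pandas 2.3.3 and SciPy 1.17.1, and figures with matplotlib 3.10.9. Gene positions came from GENCODE lifted to GRCh37, and upstream windows from that genome. Motif shares came from the first 250 bases of the RefSeq promoter windows (GRCh38.p14).

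The genes, the lists and the tests were chosen with earlier results of these data known. Transcripts with at least 10% of a gene in any library were named, except those of EDN3 and AGTR1. Also named were the 9 genes and the 3 genes most like EDN1. In each other list, the genes past the criterion and the 2 with the highest mean FPKM were named. The markers MYL7, MITF, ERBB3, TBX18 and BNC1 also met this rule but are covered only within counts or sums. ECE2, EDN2, MEF2C, MSX1, MSX2, several markers, other genes at or near 0 and the pairs of genes were named after their values were seen. So were the signaling genes other than RGS3 and RGS5. As alternatives, 0.1 was added to the FPKM, the filter was dropped or set at 5 FPKM, values were scaled by quantiles or by median of ratios, the trend was removed, a replicate block was fitted, the isoform table was summed, short RNA genes and genes at 0 beside 5 FPKM or more were left out, and each replicate was omitted in turn. The block together with leaving out those genes was added after seeing the data. Some related genes are not reported here and are left out of the counts of the related list, which says nothing about them.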

Additional observations from a re-analysis of the deposited data

How the results depend on the processing

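None of the 9 genes passed under any of the 13 alternatives (the minimum of 5 FPKM left 4 of the 6 tested), and EDN1 kept its direction throughout, at -1.38 to -0.68 (adjusted p 0.00812 to 0.292, limma). Over all tested genes, 266 passed, beside 20 without the filter, 152 with a mean of at least 5 FPKM, 176 with the replicate block and 59 to 159 with a replicate left out. Those lower in CPC were 178, beside 8, 93 and 117, and 20 to 89. Those higher were 88, beside 12 without the filter and 39 to 70 with a replicate left out. The share of passing genes that were higher in CPC was 33.1%, beside 60.0% without the filter, 66.1% and 72.9% without CPC replicate 1 and 2, and 44% without ECsXAV replicate 1. What the replicate numbers mark is not stated, and whether they pair the libraries is unknown (rank correlation of the deviations of same-numbered libraries 0.356, Pearson's 0.035, across genes, which are not independent). The block changed no call among the 9 genes. Among the related, signaling, arch and kinin genes 0 passed in limma. Of these, 36 were tested and 11 had an unadjusted p under 0.05, beside 18.2% of all tested genes. With a pseudocount of 0.1, without short RNA genes and with the block added to the latter, 1 passed, which was HAND1. The causes were not tested. With a replicate left out, the log2 fold change changed sign for EDNRA (-0.19 without CPC replicate 1 and -0.032 without ECsXAV replicate 2, up to 0.22), PRCP (-0.061 without CPC replicate 2 and -0.033 without ECsXAV replicate 1, up to 0.11), ATP6AP2 (-0.034 without CPC replicate 1, up to 0.20), and the markers KDR and ACTA2 (-0.011 and -0.075 without ECsXAV replicate 2, up to 0.41 and 0.40). The difference in the share of the leading transcript, in percentage points, then ran from -11.7 to 79.3 for EDN1, -10.3 to 82.1 for EDNRB, -5.41 to 58.5 for AGTRAP and -0.034 to 22.9 for ACE. The minimum of 0.1 FPKM left ACE with 1 transcript and so gave no share. Low depth limits EDN3 and AGTR1, which rest on a few reads. Of the markers, TAGLN and AFP passed with each replicate left out, MYH6 and MYBPC3 did not pass with any replicate left out, COL1A1 and COL3A1 passed only without ECsXAV replicate 1, and LUM, TTR and APOA2 did not pass without either CPC replicate (TTR and APOA2 fell under the filter without ECsXAV replicate 1). Without the filter AFP alone of the markers passed (adjusted p 0.0347, limma), and the others had 0.057 to 0.160. All markers that passed kept their direction.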

Other observations

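Among 11 genes of the kinin and aldosterone branches, which meet the angiotensin system at ACE and at the adrenal hormone it controls, 1 was tested. CPM, a membrane carboxypeptidase that trims kinins, had 1.95 and 1.60 FPKM in the ECsXAV libraries and 0.437 and 0.484 FPKM in the CPC libraries. The groups did not overlap, and the log2 fold change was -0.92 (standard error 0.16, adjusted p = 0.0621 from limma), which did not pass. HSD11B2, which protects the aldosterone receptor from cortisol, had 0.726 and 0.966 FPKM in the ECsXAV libraries and 0.402 and 0.708 FPKM in the CPC libraries and was under the filter. The kinin receptor BDKRB1 was at 0.123 and 0.0820 FPKM in the ECsXAV libraries and listed at 0 in the CPC libraries, and the aldosterone synthases CYP11B1 and CYP11B2 were listed at 0 in all 4 libraries.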
